A study of Oryza sativa Japonica Group with 4 samples.

Results

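The genes described here are the named rice genes of cytokinin breakdown, activation, signal relay and response, read in the lamina joint, where the leaf blade bends away from its sheath. Members were chosen by name: a RefSeq symbol or synonym had to be CKX, RR, ORR, HK, IPT, LOGL or AHP with a number, or LOG, and pseudo-response regulators were left out. The rule found 42 genes, of which 31 are paired with a probe set of their own (36 probe sets in all, out of 57381 on the array). Total RNA of 2 genotypes was hybridised to the 1-colour Affymetrix Rice Genome Array. One genotype was the japonica wild type Zhonghua11, called ZH11 (2 arrays). The other was the mutant ila1 (2 arrays), which has wider leaf angles and whose affected gene encodes a Raf-like protein kinase. All 4 samples were lamina joints of plants taken at the tillering stage, and the labels name 2 biological replicates of each without saying how many plants they hold. P-values therefore measure the spread between these samples.

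Cytokinins are adenine-derived hormones that promote cell division and delay leaf senescence. Isopentenyltransferases (IPT) make the nucleotide forms, LOG and its relatives (LOGL) release the active free bases in a single step, and cytokinin oxidases (CKX) destroy them by cutting off the side chain. Membrane histidine kinases (HK) sense the hormone and pass a phosphate through phosphotransfer proteins (AHP) to response regulators (RR), where type B members are transcription factors that switch on target genes and type A members are early targets that damp the signal. The type of each regulator is given here by its RR number as rice names are used. RR21 to RR24 carry B in a second name. RR27 and RR33, numbered with type B, and RR41, numbered with type C, each carry A in a synonym, so their types are not settled.

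Of 26 cytokinin genes tested, 5 rose and 3 fell in ila1. The oxidase gene CKX11 and the response regulators RR4, RR9, RR22 and RR23 rose, and the oxidase genes CKX4 and CKX5 and the activation gene LOG fell, each between 1.68-fold and 3.15-fold. Leaving out either ZH11 array ended each of these calls, as it did nearly all calls among all tested genes. Among all 15633 genes tested in the same way, 18.3% passed the test, 5.68% as higher and 12.6% as lower in ila1. The called share of the cytokinin genes was 30.8%, and because the genes were chosen with earlier results known, no test was made of that excess. The median log2 fold change of the 26 genes was 0.25, beside -0.02 for all tested genes. Signals are the authors' deposited intensities, and fold changes are of log2(signal + 16), which understates the change of low signals. A gene passed where the adjusted p of limma (Benjamini-Hochberg over 34355 probe sets) was under 0.05. A gene read by several probe sets is represented by the brightest, and signals of different probe sets are not compared with each other.

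**Figure D1:**
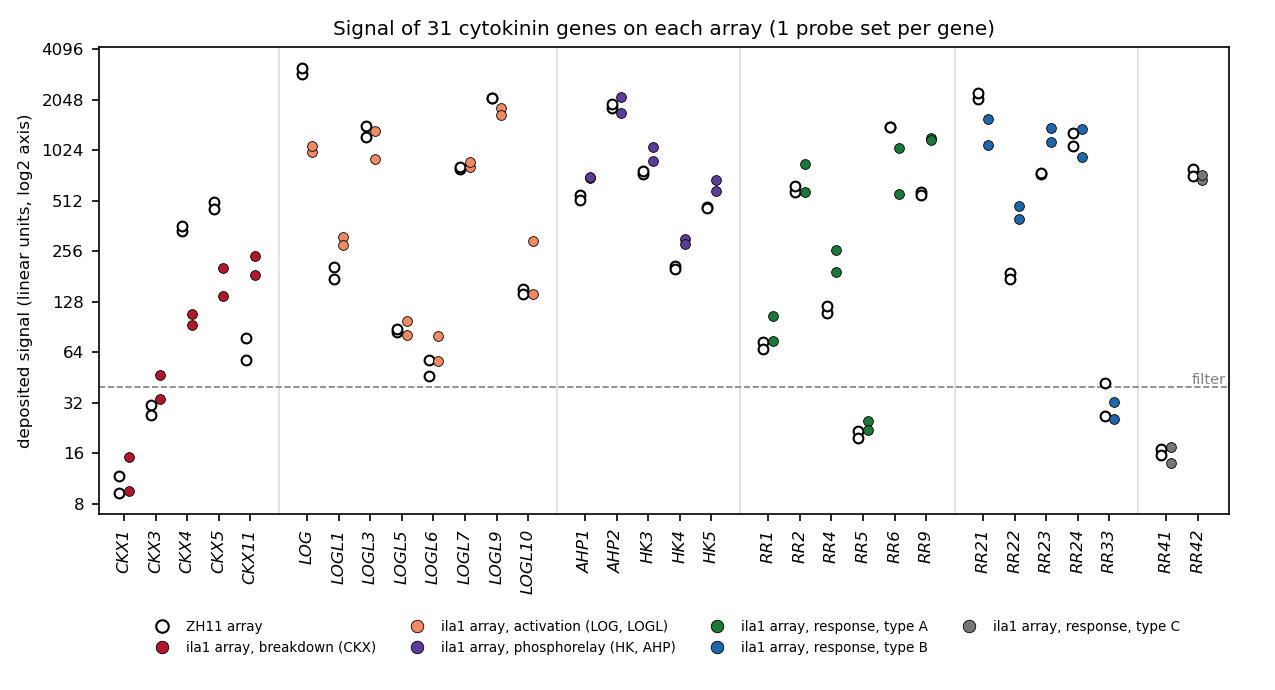
Deposited signal (log2 axis) of the 31 cytokinin genes with a probe set on each of the 4 arrays, grouped by subfamily, with open points for ZH11 arrays and filled points for ila1 arrays. The dashed line is the filter on low values at a signal of 39.6. Both ila1 points of CKX4, CKX5 and LOG lie below both ZH11 points, and both ila1 points of CKX11, RR4, RR9, RR22 and RR23 lie above them.

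The arrays had median signals from 53.6 to 57.9. The correlation of log2 signals across probe sets, which are not independent replicates, was 0.995 within ZH11, 0.983 within ila1 and 0.957 to 0.966 across genotypes. Replicate arrays of ila1 differed in the cytokinin genes by a median of 0.28 (absolute log2 difference) and those of ZH11 by 0.11, beside 0.21 and 0.09 for all tested genes. LG1, the SPL factor needed to form the ligule and lamina joint, was read at 312 and 340 in ZH11 and at 318 and 234 in ila1. Of 6 lamina joint markers with a probe set 4 were tested and none passed (LG1, BU1, IBH1 and SMOS1), but the summed signal of the 6 was 1905 and 2006 in ZH11 against 1087 and 1494 in ila1. SMOS1 alone gave 1232 and 1282 of it in ZH11 and 469 and 964 in ila1. Over 3 photosynthesis markers, none of which passed, the sum was 14608 and 24867 on the ila1 arrays, a range that holds both ZH11 sums, 19978 and 21361. The markers differed within that sum, with CAB2R lower and rbcS higher than ZH11 on both ila1 arrays. The third, rca, read 2307 and 2950 in ZH11 and 1186 and 5058 in ila1. One of 5 tested markers of dividing cells rose, the replication gene MCM2 (log2 fold change 0.46, limma adjusted p = 0.0447). The summed signal of 13 such markers was 958 and 971 in ZH11 against 1221 and 1043 in ila1. PCNA alone gave 564 and 587 of it in ZH11 and 771 and 683 in ila1, without passing. Of the other tested markers, CDKB2-1 and CYCA2-1 read lower on both ila1 arrays without passing, and CYCB2-1 overlapped between genotypes. None of 3 secondary wall markers passed, with sums of 796 and 806 in ZH11 against 773 and 718 in ila1, nor did 1 meristem marker, FON1, whose signals overlapped. The part of these levels in the results below was not tested, and fewer cells of a type cannot be told apart from less RNA per cell.

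Cytokinin oxidases moved in opposite directions. CKX4 was read at 335 and 364 in ZH11 and at 92.4 and 108 in ila1. Both ila1 arrays were far below both ZH11 arrays, a 3.15-fold fall (log2 fold change -1.66 ± 0.14 SE, limma adjusted p = 0.0046), and 3.75% of all tested genes had a lower log2 fold change. CKX5 fell 2.69-fold, from 502 and 455 in ZH11 to 138 and 202 in ila1 (log2 fold change -1.43 ± 0.20, limma adjusted p = 0.016). Its ila1 arrays lay further apart than its ZH11 arrays, by 0.50 against 0.14 on the log2 scale, but did not reach the ZH11 range.

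CKX11, an oxidase gene known in rice for its part in leaf senescence and grain number, went the other way. It was read at 57.9 and 77.3 in ZH11 and at 183 and 239 in ila1, a 2.72-fold rise (log2 fold change 1.44 ± 0.19 SE, limma adjusted p = 0.0138), and 0.716% of tested genes had a higher log2 fold change. A second probe set of CKX11 was below the filter, at 34.2 and 31.4 in ZH11 and 29.1 and 38.5 in ila1, where the genotypes overlapped. With the mean of both probe sets the log2 fold change of CKX11 was 0.73 and still passed. CKX1 read between 9.25 and 15.2 on the 4 arrays and CKX3 read 31.1 and 26.9 in ZH11 against 33.6 and 46.6 in ila1. Both were below the filter and were not tested. CKX2, the oxidase gene at the Gn1a locus for grain number, and CKX9 have no probe set of their own in the annotation and are not analysed here.

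No gene in the table carries an IPT name of the form searched, so cytokinin synthesis is not analysed here. Of 8 tested genes for the activating enzymes, LOG fell and the 7 others, all LOG-like, did not pass. LOG, the founding gene of the family, which maintains the rice shoot meristem, was read at 2901 and 3152 in ZH11 and at 994 and 1085 in ila1. The arrays of each genotype differed by 0.12 on the log2 scale, and the fall was 2.88-fold (log2 fold change -1.53 ± 0.11 SE, limma adjusted p = 0.0037). A second LOG probe set with low signal read 63.0 and 57.3 in ZH11 and 47.7 and 56.3 in ila1 and did not pass (log2 fold change -0.17 ± 0.11). With the mean of both probe sets the log2 fold change of LOG was -0.85 and still passed.

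The LOG-like genes lay between log2 fold changes of -0.27 and 0.59. LOGL1 was nearest to a call, at 206 and 175 in ZH11 and 310 and 278 in ila1 (log2 fold change 0.59, 95% interval 0.21 to 0.96, limma adjusted p = 0.0602). It passed under 2 other scalings of the arrays, quantile normalization and scaling to the hybridization controls. Its probe set name ends in x_at, Affymetrix's mark for probes that may also bind other transcripts. LOGL9 was read at 2085 and 2089 in ZH11 and at 1817 and 1652 in ila1, below ZH11 on both arrays (log2 fold change -0.27, 95% interval -0.53 to -0.00073, limma adjusted p = 0.144). The log2 fold change of LOGL9 was 0.0076 after quantile normalization and -0.0094 under scaling to the hybridization controls.

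In the remaining 5 LOG-like genes the genotypes overlapped. LOGL7 was read at 793 and 817 in ZH11 and at 817 and 875 in ila1 (log2 fold change 0.07, interval -0.22 to 0.36). LOGL5 had a similar interval, -0.30 to 0.37. LOGL3 had a wider one, -0.82 to 0.31, with ila1 signals of 902 and 1339, and LOGL6 one of -0.15 to 0.76. LOGL10 read 152 and 141 in ZH11 but 293 and 142 in ila1, so that its log2 fold change of 0.44 rested on 1 ila1 array. Without ila1 replicate 1 it was -0.04, and without ila1 replicate 2 it was 0.93. LOGL4 and LOGL8 have no probe set of their own and are not analysed here.

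None of the 5 tested genes of the phosphorelay passed, although both ila1 arrays were above both ZH11 arrays in 4 of them. Over all tested genes 32.6% had both ila1 arrays above both ZH11 arrays, and 3 of the 5 had an unadjusted p under 0.05, as did 37.3% of all tested genes. The receptor kinase HK4 was read at 209 and 202 in ZH11 and at 304 and 281 in ila1 (log2 fold change 0.48, 95% interval 0.16 to 0.80, limma adjusted p = 0.0652). HK5, another receptor kinase, read 472 and 464 in ZH11 against 583 and 677 in ila1 (log2 fold change 0.41, limma adjusted p = 0.101). Its second probe set gave a log2 fold change of 0.43 without passing. HK3 read 735 and 767 against 1064 and 877 (log2 fold change 0.36, limma adjusted p = 0.15).

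The phosphotransfer gene AHP1 was read at 553 and 513 in ZH11 and at 698 and 712 in ila1 (log2 fold change 0.39, 95% interval 0.09 to 0.70, limma adjusted p = 0.088), and its second probe set gave 0.37. The probe sets that stand for HK5 and AHP1 have names ending in s_at, Affymetrix's mark for probes shared by several transcripts, and their second probe sets do not. AHP2, its relative, overlapped between genotypes, at 1837 and 1920 in ZH11 and 1715 and 2119 in ila1, with a log2 fold change of 0.02 and an interval from -0.33 to 0.37. The subfamily's median log2 fold change of 0.39 was 0.57 after quantile normalization and 0.65 under scaling to the hybridization controls. The median of all tested genes moved too, from -0.02 as deposited to 0.13 and 0.23 in that order. HK4 and AHP1 passed under both of these scalings and HK5 under the second. HK1, a histidine kinase known in rice for ethylene signalling in roots, has no probe set of its own and is not analysed here.

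**Figure D2:**
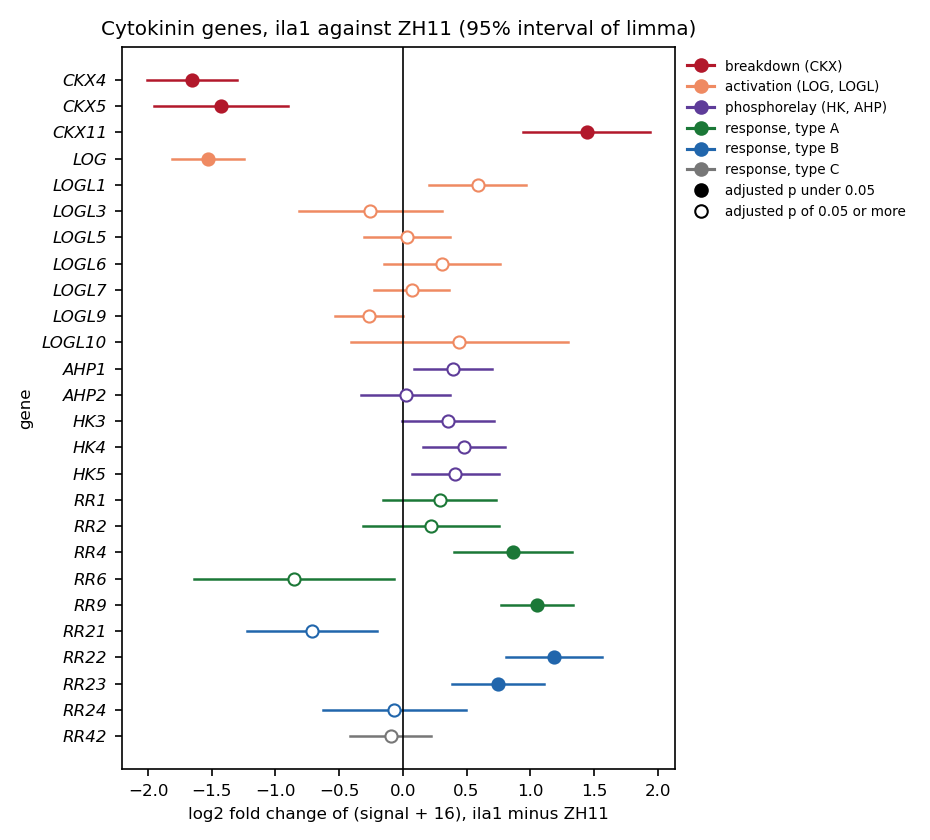
Log2 fold change of (signal + 16), ila1 minus ZH11, with the 95% interval from limma for the 26 tested cytokinin genes, coloured by subfamily, where filled points have an adjusted p under 0.05. The 3 tested oxidase genes are all called, in both directions, and the 5 phosphorelay genes lie between 0.02 and 0.48 without a call.

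Of 10 tested response regulators, 4 rose and none fell. Of the type A genes, RR9 was read at 576 and 553 in ZH11 and at 1206 and 1170 in ila1. Both genotypes had close replicates, and the rise was 2.07-fold (log2 fold change 1.05 ± 0.11 SE, limma adjusted p = 0.00765). RR9 has a near-identical relative, RR10, which has no probe set of its own, and whether the RR9 probes also read RR10 could not be checked without probe sequences. RR4 rose 1.82-fold, from 110 and 121 to 192 and 260 (log2 fold change 0.87 ± 0.18, limma adjusted p = 0.0394). Its probe set also has a name ending in s_at.

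RR6, also of type A, read lower in ila1 without passing. It was read at 1401 and 1407 in ZH11 and at 560 and 1055 in ila1, a log2 fold change of -0.85 ± 0.30 SE (95% interval -1.64 to -0.07, limma adjusted p = 0.124). The ila1 arrays differed by 0.89 on the log2 scale, and the log2 fold change was -0.41 without ila1 replicate 1 and -1.30 without ila1 replicate 2. RR2 read 577 and 625 in ZH11 and 580 and 848 in ila1 (log2 fold change 0.22, interval -0.32 to 0.75), so that 1 ila1 array stood above and the other within the ZH11 range. RR1 read 73.6 and 66.5 against 74.9 and 105 (log2 fold change 0.29, interval -0.16 to 0.73). RR5 read between 19.7 and 24.9 on the 4 arrays, below the filter.

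Of the 4 tested type B genes, whose products bind DNA, RR22 and RR23 rose and none fell. RR22, in which a loss-of-function allele is known in rice for salt tolerance, rose 2.28-fold. It was read at 189 and 174 in ZH11 and at 473 and 398 in ila1 (log2 fold change 1.19 ± 0.15 SE, limma adjusted p = 0.0112), and 1.40% of tested genes had a higher log2 fold change. RR23 rose 1.68-fold, from 741 and 744 to 1139 and 1391 (log2 fold change 0.75 ± 0.14, limma adjusted p = 0.0305).

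RR21 was lower on both ila1 arrays, at 1579 and 1092 against 2070 and 2258 in ZH11, and missed the threshold (log2 fold change -0.71, 95% interval -1.22 to -0.20, limma adjusted p = 0.075). The log2 fold change of RR21 was -0.44 after quantile normalization and -0.46 under scaling to the hybridization controls. The median of all tested genes was 0.13 and 0.23 under these scalings, against -0.02 as deposited. RR24 overlapped between the genotypes, at 1091 and 1291 in ZH11 and 1376 and 933 in ila1 (log2 fold change -0.07, interval -0.63 to 0.50). RR33 read between 25.6 and 42.1, below the filter. Of the type C genes, which resemble type A in sequence but are not counted as early cytokinin targets, RR42 read 788 and 714 in ZH11 and 677 and 725 in ila1 (log2 fold change -0.10, interval -0.41 to 0.22), and RR41 read between 14.1 and 17.4, below the filter. RR7, RR10, RR11, RR13, RR25 and RR27 have no probe set of their own and are not analysed here.

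**Figure D3:**
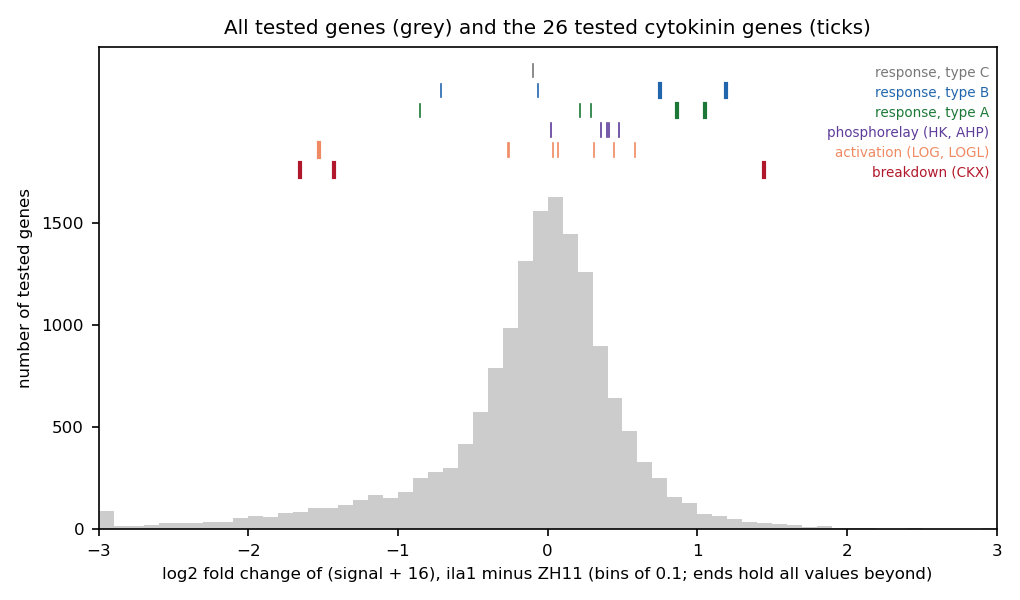
Number of tested genes by log2 fold change of (signal + 16), ila1 minus ZH11, in bins of 0.1 (grey bars), with the 26 tested cytokinin genes as ticks above, 1 row per subfamily and thick ticks for adjusted p under 0.05. CKX4, LOG and CKX5 lie in the long lower tail and CKX11, RR22 and RR9 in the thinner upper tail.

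Each of the 26 tested genes read above the filter's signal of 39.6 on every array, the lowest value being 46.1 for LOGL6 on a ZH11 array. By subfamily the median log2 fold change was -1.43 over 3 oxidase genes, 0.05 over 8 activation genes, 0.39 over 5 phosphorelay genes and 0.25 over 10 response regulators (0.29 over 5 of type A and 0.34 over 4 of type B). The oxidase median stands for 3 genes that lie far apart, from -1.66 to 1.44, so no single direction describes the subfamily. Over the 26 genes 17 log2 fold changes were positive and 9 negative, while 48.4% of all tested genes were positive. Both ila1 arrays lay beyond both ZH11 arrays in 17 of the 26, 11 above and 6 below, and over all tested genes this held for 68.2%, 32.6% above and 35.6% below.

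Of the other cytokinin pathway genes searched by name (hydroxylases, glucosyltransferases, purine permeases and nucleoside transporters, pseudo phosphotransfer proteins, cytokinin response factors, KNOX factors and others), 2 have a probe set of their own, and neither passed. PHP5, a pseudo phosphotransfer protein gene, read 89.6 and 99.1 in ZH11 and 175 and 112 in ila1 (log2 fold change 0.50, limma adjusted p = 0.175). A gene named CKI1 read 397 and 422 against 568 and 461 (log2 fold change 0.31, limma adjusted p = 0.211). The name CKI1 is also used for a rice casein kinase, so that its place in this pathway is not settled.

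All 8 calls were kept, in the same direction, under the 3 other scalings of the arrays and the 7 other settings tried. No cytokinin gene passed without ZH11 replicate 1 or without ZH11 replicate 2, where 0.064% and 0.403% of all tested genes passed, and 17 passed without ila1 replicate 1 and 17 without ila1 replicate 2, where 39.0% and 51.0% of all genes did. Those fits take the spread from the genotype that still has 2 arrays. Over all probe sets, 1619 were called higher and 3572 lower as deposited, 2926 and 2863 after quantile normalization, 2083 and 3066 after median centring, and 3507 and 2215 under scaling to the hybridization controls. The median log2 fold change of all genes moved with them, to 0.13, 0.05 and 0.23. Relative to it, the cytokinin median was 0.27 as deposited and 0.23, 0.27 and 0.26 in that order. It was lower with no filter, at 0.12 over 31 genes, and without ila1 replicate 1, at 0.16, where the median itself fell from 0.25 to 0.15.

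**Figure D4:**
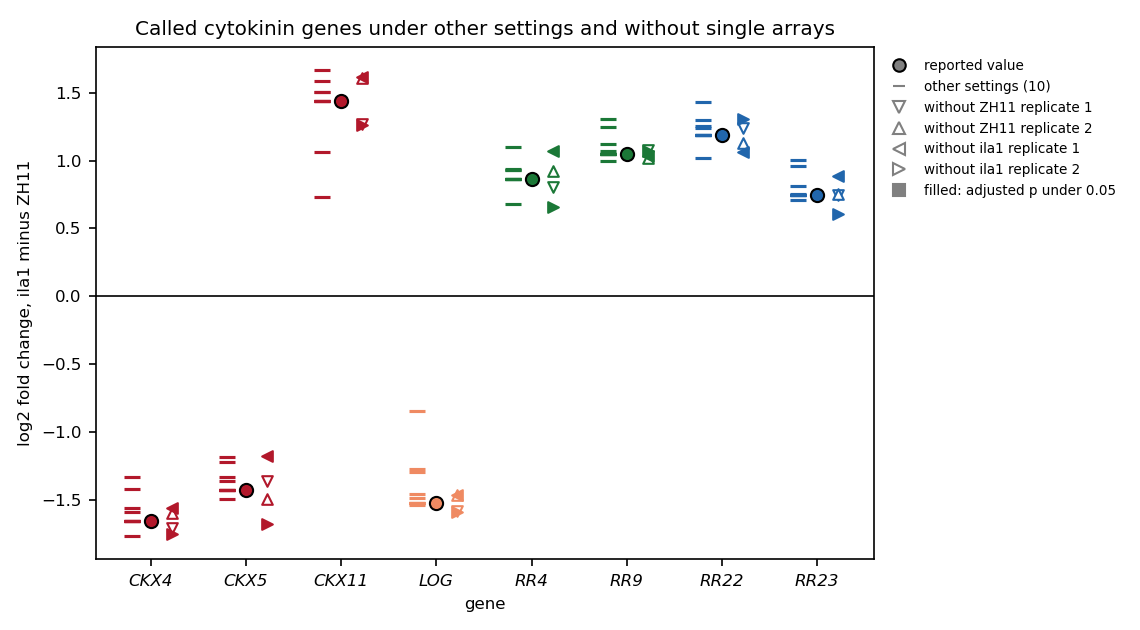
Log2 fold change, ila1 minus ZH11, of the 8 called cytokinin genes as reported (circles), under the 10 other settings (dashes) and with 1 array left out (triangles, filled where the adjusted p was under 0.05). No value crosses 0. The dashes nearest to 0 for CKX11, at 0.73, and LOG, at -0.85, are the means over both probe sets of the gene, and the triangles for fits without a ZH11 array are open.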

How the data were processed

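The authors deposited 1 linear intensity per probe set and array. Biotin-labelled cRNA was made from TRIzol extracts by Affymetrix's standard protocol, per the labels' protocols. Not given in the sources used here are the scanning software, the background correction and any scaling between arrays. No detection calls were used. After 123 Affymetrix controls were left out, log2(intensity + 16) was taken, and probe sets in the lowest 40% by mean were not tested. The remaining 34355 were fitted with limma 3.58.1 in R 4.3.3 (lmFit, eBayes with trend, two-sided, genotype only, prior of 2.91 and residual of 2 degrees of freedom). The fit was tested on simulated data, but the setting and outcome of that test are not given here, so nothing is drawn from it. Probe sets paired with exactly 1 gene (22436, for 17905 genes, each found in RefSeq, assembly ASM3414082v1, used for names only) were named, and the brightest stood for its gene. Tables and plots used Python 3.11.15, pandas 2.3.3 and matplotlib 3.10.9.

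Members, lists and settings were chosen with earlier results of these data known. Each member that passed, and in each subfamily the brightest and the one with the smallest p, was to be given with every array. Response regulators were typed by RR numbers, since ORR1 to ORR5 are second names of RR21 to RR25, a departure from the planned first synonym. The root marker list has no gene with a probe set.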

Additional observations from a re-analysis of the deposited data

How the results depend on the processing

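The count of 8 called cytokinin genes was 11 after quantile normalization (8 higher, 3 lower) and 12 with arrays scaled to hybridization controls (9 higher, 3 lower). It was 9 with eBayes without trend. It stayed at 8 with median centring, pseudocounts of 4 or 64, no filter or a filter of 20%, the replicate block, and each gene's probe sets averaged. Of all tested genes 18.3% passed as reported, 21.4% after quantile normalization, 21.3% with hybridization controls and 18.6% without trend. In the settings that kept the count at 8, between 15.5% and 18.5% of all tested genes passed. The genes added were LOGL1, HK4 and AHP1 by quantile normalization, these and HK5 by the hybridization controls, and HK4 without trend. With 1 array left out the count ranged from 0 to 17, and the count of called probe sets from 22 to 14800 (5191 with all arrays). Arrays with the same replicate number deviated together at a correlation of 0.103, and with 2 pairs the number was not taken to pair them. With the replicate block 4816 probe sets were called, and it changed no cytokinin call. With hybridization controls the medians were 0.49 for all cytokinin genes, -1.19 for breakdown, 0.29 for activation, 0.65 for phosphorelay, 0.49 for response, 0.50 for type A, 0.60 for type B and 0.16 for type C (from -0.10, for 1 gene). Quantile normalization gave 0.57 for phosphorelay, 0.57 for type B and 0.091 for type C, and a pseudocount of 64 gave -1.22 for breakdown. The median of all tested genes, -0.02 as reported, was 0.23 with hybridization controls, 0.13 after quantile normalization and -0.01 with a pseudocount of 64. The cause of these moves was not tested. With 1 array left out the medians ranged from 0.15 to 0.25 for all cytokinin genes, -1.68 to -1.18 for breakdown, 0.15 to 0.49 for response and 0.080 to 0.50 for type A. With 4 arrays, the number of arrays limits the precision, and no array-wide background level is given with the values.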
